A study of Mus musculus with 24 samples.

Results

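The SLAM family receptor genes on the panel were Cd84, Ly9, Slamf9 and Slamf8, picked by gene symbol as members of 1 receptor family, with earlier results of these data known. They were 4 of the 757 genes measured in mouse brain tissue with a neuroinflammation panel of barcoded probes, which counts RNA molecules without amplification. The 24 samples came from male C57BL/6J mice of 27 weeks and fell into 7 groups. The study describes mice of both sexes and does not give the sex behind its expression data. Control + Veh (4 samples) received neither treatment and was injected with phosphate-buffered saline as vehicle. RT-TMZ + Veh (4 samples) received cranial radiation, which the labels give as 3 fractions of 9 Gy, and temozolomide at 25 mg/kg and later 66.7 mg/kg, followed by vehicle. In place of vehicle, RT-TMZ + UCI-191 EV (3 samples) and RT-TMZ + Shef6 EV (3 samples) received weekly injections of extracellular vesicles (EVs) from the human neural stem cell line named. The murine glioma line CT2A carrying luciferase was implanted intracranially before the same treatments in CT2A + RT-TMZ + Veh (4 samples), in CT2A + RT-TMZ + UCI-191 EV (3 samples) and in CT2A + RT-TMZ + Shef6 EV (3 samples). No group had the tumor without chemoradiation or EVs without chemoradiation, and the vesicles were of human origin in an immunocompetent mouse. The tissue is labelled brain only. The study presents its expression data as coming from hippocampus, its methods describe the dissection of prefrontal cortex as well, and the values are given here for brain tissue.

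SLAM receptors are immunoglobulin superfamily proteins on the surface of leukocytes, and most of them bind a copy of themselves on a neighboring cell. Cd84 and Ly9 carry tyrosine motifs in their cytoplasmic tails that recruit small adaptor proteins such as SAP, the product of Sh2d1a, and through them the kinase Fyn or, without the adaptor, phosphatases such as SHP-1, the product of Ptpn6. Slamf8 and Slamf9 have short tails that lack these motifs, and they are known mainly from macrophages and dendritic cells. Cd84 is known from microglia, platelets and lymphocytes, Ly9 from T and B lymphocytes, and Slamf8 has been described as a brake on the NADPH oxidase of mouse phagocytes. Apart from microglia, few cells of healthy brain tissue carry such receptors.

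The family lies on mouse chromosome 1. In the order of the RefSeq annotation its genes were Cd244a, Ly9, Slamf7, Cd48, Slamf1, Cd84, Slamf6, Slamf9 and Slamf8. Of these 9 genes, 5 were on the panel, Cd244a among them, and no 2 of the 4 members were direct neighbors. The 100 bases upstream of the annotated start are shown for the 3 members with an entry in the RefSeq promoter table (GRCm38.p6), since 2 of them moved together and the last did not. Capitals mark matches to 3 motifs that were chosen after the sequences had been seen and searched on both strands, namely GAGGAA (the core bound by the myeloid factor PU.1), GAAA followed after any 2 bases by GAAA (the repeat bound by interferon regulatory factors) and GGGA followed after any 2 bases by TTCC (bound by NF-kappaB).
Cd84, chr1:171839597-171839696, plus strand: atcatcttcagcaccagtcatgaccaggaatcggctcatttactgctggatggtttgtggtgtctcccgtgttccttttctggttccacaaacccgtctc
Slamf9, chr1:172475260-172475359, plus strand: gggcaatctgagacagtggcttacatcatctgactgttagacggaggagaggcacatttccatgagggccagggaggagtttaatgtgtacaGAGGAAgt
Slamf8, chr1:172590569-172590668, minus strand: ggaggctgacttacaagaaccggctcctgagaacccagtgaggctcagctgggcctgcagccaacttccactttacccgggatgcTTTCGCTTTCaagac
Slamf9 had GAGGAA on its own strand, from -8 to -3 bases before the start, while the matches of Cd84 (from 12 to 17 bases after the start) and Slamf8 (from 20 to 25) lay on the opposite strand and past the stretch shown. Slamf8 also held the interferon factor repeat, on the opposite strand from -15 to -6, and the NF-kappaB letters from 37 to 46. Of 32851 promoter windows of 300 bases, 28.3% held GAGGAA, 3.44% the interferon factor repeat and 1.47% the NF-kappaB letters. A match is a description of these letters and not a binding site.

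Values are log2 normalized counts as deposited, and values under 20 normalized counts were read as background. The steps between low values gave each sample's scaling factor, and from it the total counts, which in units of 1000 were 862 to 1478 per sample. The 4 samples of CT2A + RT-TMZ + Veh stood apart with 862 to 936, under every other sample (1009.5 or more), so depth and group cannot be told apart in comparisons with that group. The samples of CT2A + RT-TMZ + Shef6 EV (1009.5 to 1196) and CT2A + RT-TMZ + UCI-191 EV (1124 to 1261) also lay wholly under Control + Veh (1288 to 1433) and RT-TMZ + Veh (1272 to 1478), and those of CT2A + RT-TMZ + UCI-191 EV under RT-TMZ + UCI-191 EV (1333 to 1435), so depth and group cannot be told apart there either. The other 2 groups without tumor overlapped with Control + Veh in depth. Divided by that factor, the normalized counts corresponded to about 79 to 261 counted molecules of Cd84 per sample, 16 to 88 of Ly9 and 29 to 106 of Slamf9. For Slamf8 they were 8 to 29, where 6 samples held the lowest value of their sample, which is a floor and not a count. The samples carry replicate numbers and nothing further on their source, so p-values measure the spread between these samples. In bulk tissue, fewer cells of a type and less RNA per cell cannot be told apart.

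Cd84, Ly9 and Slamf9 differed over the 7 groups, and Slamf8 did not pass the test. The adjusted p of the moderated F in limma was 1.64e-05 for Slamf9, 2.53e-05 for Cd84 and 4.78e-05 for Ly9, which placed them 5th, 15th and 26th of 757 genes, against 0.249 for Slamf8. Of all genes, 48% passed this test. Slamf8 was at or above background in 7 of 24 samples, Ly9 in 22, and Cd84 and Slamf9 in 24. Without replicate 1 of CT2A + RT-TMZ + Veh, Slamf8 passed as well (adjusted p of the F in limma 0.0342).

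Cd84, a receptor that binds itself and works through SAP or phosphatases, was lowest in Control + Veh, with 6.60, 6.75, 6.59 and 6.40. In RT-TMZ + Veh it was 7.67, 7.66, 7.73 and 7.80, the tightest group of 4 for this gene. Each sample of the 6 treated groups lay above each control sample, a separation found in that direction for 10.6% to 22.1% of all genes in the single comparisons with Control + Veh. With EVs and no tumor, Cd84 was 7.16, 7.41 and 7.31 after Shef6 EV and 7.67, 7.39 and 7.43 after UCI-191 EV. In CT2A-bearing mice it was 7.39, 6.81, 7.06 and 7.27 after vehicle, 7.98, 7.56 and 7.42 after Shef6 EV and 7.13, 7.18 and 7.08 after UCI-191 EV. From high to low the group means ran RT-TMZ + Veh (7.72), CT2A + RT-TMZ + Shef6 EV (7.65), then RT-TMZ + UCI-191 EV (7.50), RT-TMZ + Shef6 EV (7.29), CT2A + RT-TMZ + UCI-191 EV together with CT2A + RT-TMZ + Veh (both 7.13) and Control + Veh (6.59). Neighboring groups in this order overlapped, except for the step down to Control + Veh.

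Ly9, known as a lymphocyte receptor that binds itself, was near background in Control + Veh, with 4.39, 4.43, 3.93 and 3.74, and 2 of these 4 values lay under it. In RT-TMZ + Veh it was 5.76, 6.02, 5.88 and 6.11. Each treated sample lay above background and above each control sample. After Shef6 EV without tumor Ly9 was 5.68, 5.76 and 5.91, and after UCI-191 EV 5.69, 6.30 and 6.02. In CT2A-bearing mice it was 5.79, 4.75, 5.10 and 5.09 after vehicle, 5.99, 5.82 and 5.07 after Shef6 EV and 5.54, 5.24 and 4.89 after UCI-191 EV. The means of the 3 groups without tumor, from 5.78 to 6.00, lay above those of the 3 CT2A groups, from 5.18 to 5.63, with overlap between neighboring groups, and Control + Veh stood at 4.12 ± 0.34 (SD, n = 4), clear of the rest.

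Slamf9, a short-tailed receptor of myeloid cells, was 4.73, 5.34, 5.02 and 5.27 in Control + Veh and 6.11, 6.47, 6.59 and 6.50 in RT-TMZ + Veh. The 2 groups were separated by more than the range of either. After Shef6 EV without tumor it was 5.93, 6.05 and 6.07, below each sample of RT-TMZ + Veh, and after UCI-191 EV it was 6.46, 6.54 and 6.43. In CT2A-bearing mice it was 6.96, 6.39, 6.40 and 6.27 after vehicle, 6.58, 6.21 and 6.38 after Shef6 EV and 6.12, 6.04 and 6.13 after UCI-191 EV. In the order of the means, 4 groups lay from 6.39 to 6.51, CT2A + RT-TMZ + UCI-191 EV and RT-TMZ + Shef6 EV at 6.10 and 6.02, and Control + Veh at 5.09. Neighbors in that order overlapped, except for CT2A + RT-TMZ + Shef6 EV with CT2A + RT-TMZ + UCI-191 EV and for RT-TMZ + Shef6 EV with Control + Veh, although the lowest sample of RT-TMZ + Veh (6.11) lay within the range of CT2A + RT-TMZ + UCI-191 EV.

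Slamf8, the other short-tailed receptor, was 3.49, 4.31, 3.39 and 3.66 in Control + Veh and 3.99, 4.34, 4.10 and 3.94 in RT-TMZ + Veh. It was 4.37, 4.3 and 4.73 in RT-TMZ + Shef6 EV and 4.21, 3.75 and 3.67 in RT-TMZ + UCI-191 EV. Most of these values were read as background, and 6 of the 24 equaled the lowest value of their sample, so they bound the level from above. In the CT2A groups Slamf8 was 5.32, 3.51, 3.67 and 4.25 after vehicle, 4.56, 4.77 and 4.11 after Shef6 EV and 4.20, 4.46 and 4.25 after UCI-191 EV. Replicate 1 of CT2A + RT-TMZ + Veh, at 5.32, was the highest of all 24 samples, and the same sample was also the highest of its group for Cd84, Ly9 and Slamf9. Group means ran from 3.71 to 4.48, and every pair of neighbors in that order overlapped.

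**Figure D1:**
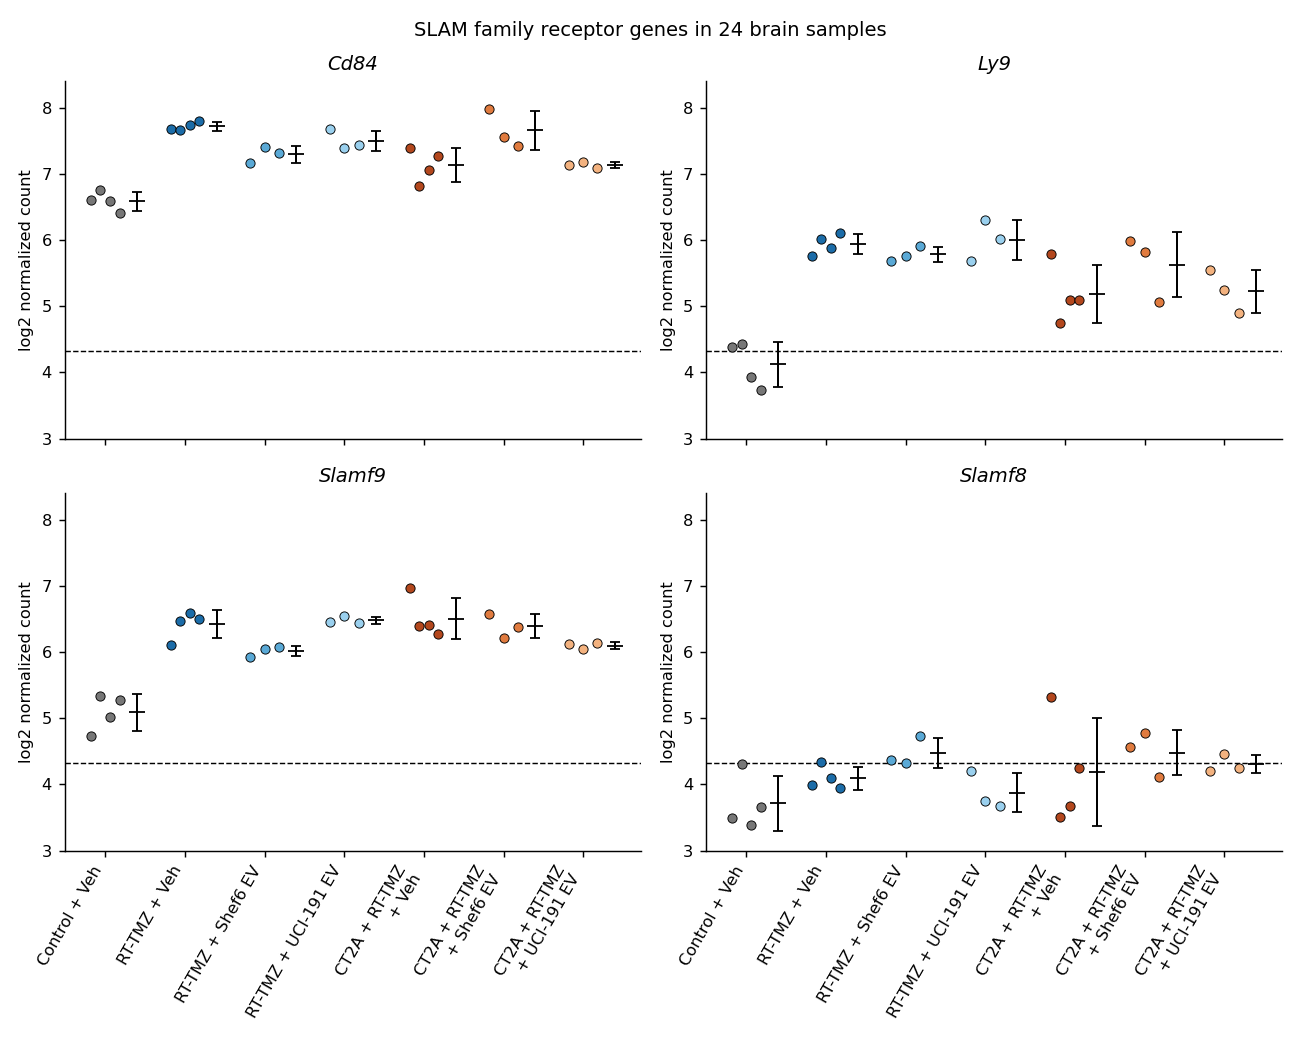
Log2 normalized counts of the 4 SLAM genes (vertical axis) in the 7 groups (horizontal axis), with 1 point per sample and the mean ± SD of each group as a bar beside its points. The dashed line is background (20 normalized counts). Cd84, Ly9 and Slamf9 lie lowest in Control + Veh, with no overlap with any treated group, while Slamf8 stays around the line.

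To see what chemoradiation without tumor did, RT-TMZ + Veh was compared with Control + Veh. Cd84, Ly9 and Slamf9 rose and Slamf8 did not pass, 3 of 4 members against 17.8% of the 757 genes, or 12.2% counted upward (92 genes up and 43 down as deposited, 66 and 82 after quantile normalization). Ly9 rose most, 3.53-fold (95% interval 2.65 to 4.70), a log2 difference of 1.82 (SE 0.18, adjusted p in limma 3.26e-04). Slamf9 rose 2.51-fold (1.92 to 3.28, log2 1.33, SE 0.17, adjusted p in limma 0.00125), and Cd84 rose 2.19-fold (1.88 to 2.55, log2 1.13, SE 0.10, adjusted p in limma 1.75e-04). By p they were 8th, 16th and 4th of all genes, and for each of them every sample of RT-TMZ + Veh lay above every control sample, as was so, in that direction, for 14.5% of genes. Slamf8 differed by 0.38 on the log2 scale (SE 0.21, adjusted p in limma 0.251), with overlap between the groups. It passed only without Control + Veh replicate 2 (log2 0.58, adjusted p in limma 0.0476). Since 2 control values of Ly9 were under background, its difference was also computed with such values set to background and was then 1.58 on the log2 scale. The 3 calls held under each scaling, filter, block and left-out sample that was tried.

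In mice with both the tumor and chemoradiation, the same 3 genes were above Control + Veh. Slamf9 was 2.67-fold higher in CT2A + RT-TMZ + Veh (1.94 to 3.67, log2 1.42, SE 0.20, adjusted p in limma 0.00530), Ly9 2.08-fold (1.39 to 3.13, log2 1.06, SE 0.26, adjusted p in limma 0.0234) and Cd84 1.46-fold (1.15 to 1.86, log2 0.55, SE 0.15, adjusted p in limma 0.0371). In this comparison 21.1% of genes passed and 7.79% upward (59 up and 101 down as deposited, 107 and 40 with each sample centered on its median gene, 73 and 62 after quantile normalization), and 12.2% were higher without overlap, as the 3 members were. With values under background set to it, the log2 difference of Ly9 was 0.82 (adjusted p in limma 0.0342). Slamf8 differed by 0.48 on the log2 scale (SE 0.40, adjusted p in limma 0.426). The call of Slamf9 held without any 1 sample. Those of Cd84 and Ly9 each ended when any of several samples was left out, while their log2 differences kept their direction. Cd84 missed the threshold without any 1 control sample or without replicate 1, 3 or 4 of CT2A + RT-TMZ + Veh (adjusted p in limma 0.0569 to 0.0964). Ly9 missed it without control replicate 1, 3 or 4 or CT2A + RT-TMZ + Veh replicate 3 (adjusted p in limma 0.0537 to 0.0681).

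The tumor was compared within chemoradiated mice given vehicle. Cd84 was lower in CT2A + RT-TMZ + Veh than in RT-TMZ + Veh by a log2 difference of -0.58 (SE 0.14, adjusted p in limma 0.0414), with no overlap between the groups. It was the 1 member of 4 that passed, where 10.6% of genes passed and 8.72% downward (14 up and 66 down as deposited, 29 and 28 after quantile normalization), and 15.7% were lower without overlap. Ly9 had a difference of -0.76 (SE 0.22, adjusted p in limma 0.0601), while Slamf9 (0.09, 95% interval -0.33 to 0.51) and Slamf8 (0.10, -0.74 to 0.93) had differences whose intervals included 0. Slamf9 was thus at 6.51 ± 0.31 (SD, n = 4) with the tumor and 6.42 ± 0.21 (SD, n = 4) without it, whereas Cd84 was at 7.13 ± 0.25 and 7.72 ± 0.06. The median of all 757 genes lay at -0.14 in this comparison, the depth of the CT2A samples was the lower, and with each sample centered on its median gene the difference of Cd84 was -0.32 (adjusted p in limma 0.141). Cd84 also missed the threshold without any 1 sample of RT-TMZ + Veh or without replicate 1 or 3 of CT2A + RT-TMZ + Veh (adjusted p in limma 0.0573 to 0.125), and Ly9 passed without CT2A + RT-TMZ + Veh replicate 1 (-0.96, adjusted p in limma 0.0495). As deposited, markers of neural cells moved in the same comparison. Of 4 astrocyte markers, the glutamate transporter gene Slc1a3 fell by 0.33 and the gap junction gene Gja1 fell by 0.42 (adjusted p in limma 0.0391 for both), and the summed level of the 4 was 17591 to 22199 normalized counts with the tumor and 23861 to 25358 without. All 4 oligodendrocyte markers had differences below 0 (median -0.61, 0 passed), with summed levels of 4016 to 13955 and 11993 to 14620, and of 9 neuron markers Slc17a7, a vesicular glutamate transporter gene, rose by 0.36 (adjusted p in limma 0.0432). With each sample centered on its median gene, Slc1a3 (-0.0625, adjusted p in limma 0.738) and Gja1 (-0.155, 0.322) did not pass. Both passed after quantile normalization (adjusted p in limma 0.0495 for both). Slc17a7 passed neither with median centering nor after quantile normalization (adjusted p in limma 0.0633 and 0.200). The part of these shifts in the difference of Cd84 was not tested.

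**Figure D2:**
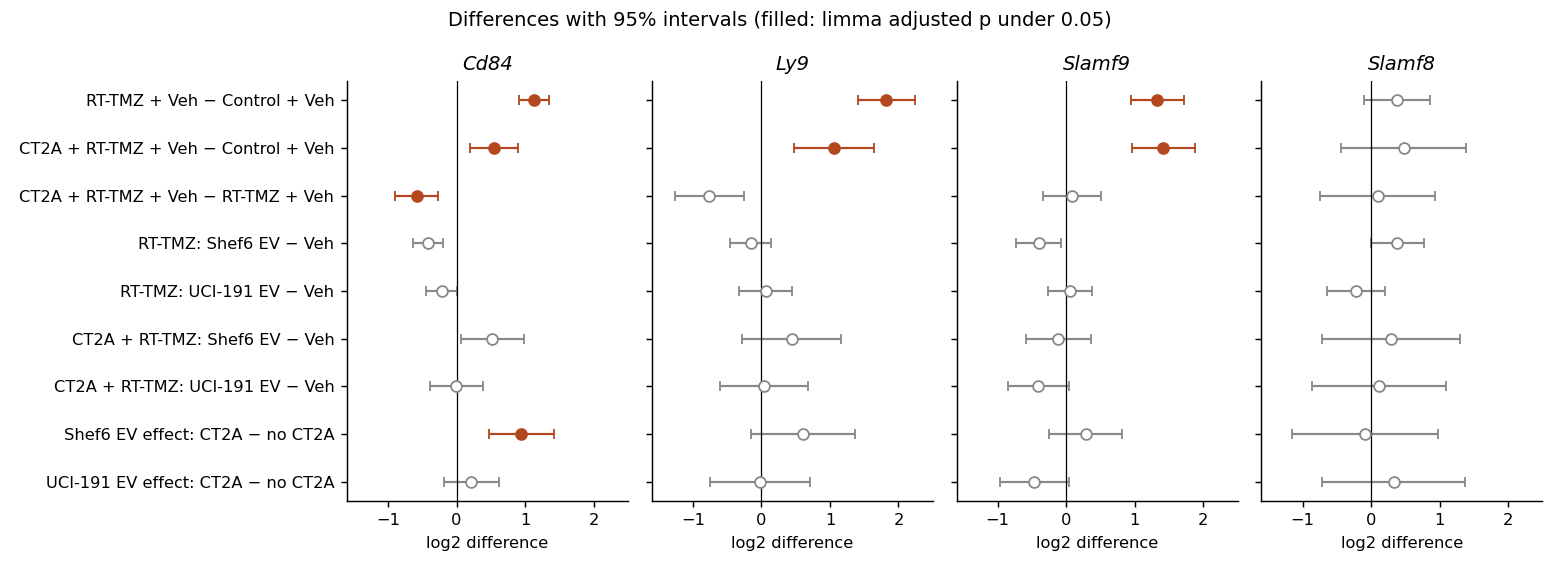
Log2 differences of the 4 SLAM genes (horizontal axis) in 9 comparisons (rows), as points with 95% intervals from limma. Filled points passed an adjusted p of 0.05 over 757 genes. Filled are Cd84, Ly9 and Slamf9 in both comparisons with Control + Veh. Also filled are Cd84 for the tumor under vehicle and the difference of the Shef6 EV effects on Cd84 (0.94). Median centering and quantile normalization each ended these last 2 calls. Some open points, such as Cd84 and Slamf9 after Shef6 EV without tumor, also have intervals clear of 0.

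The EVs were first compared with vehicle in chemoradiated mice without tumor. No member passed in RT-TMZ + Shef6 EV against RT-TMZ + Veh, and neither did any other gene (0% of 757). Cd84 differed by -0.42 on the log2 scale (SE 0.09, 95% interval -0.64 to -0.20, adjusted p in limma 0.388), the 4th smallest p of all genes, and Slamf9 by -0.40 (SE 0.14, -0.73 to -0.07, adjusted p in limma 0.402). Both were lower in every Shef6 EV sample than in every vehicle sample, as were 7.93% of genes. Ly9 differed by -0.16 (-0.47 to 0.15) and Slamf8 by 0.38 (-0.01 to 0.77, adjusted p in limma 0.410). Of the Slamf8 values, 3 of 4 in RT-TMZ + Veh and 1 of 3 in RT-TMZ + Shef6 EV were under background. The study names Slamf8 among the genes upregulated in this comparison, by thresholds of its own. The methods' t-test, read here with unadjusted p at the threshold used for limma, passed 2 of the 4 members and 64 of the 757 genes. At that threshold none passed after Benjamini-Hochberg adjustment. Reading unadjusted p is not the study's rule, since its methods adjust these p-values and set a cutoff of their own.

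UCI-191 EV left smaller differences from vehicle in mice without tumor, and again no gene passed in limma (0%). In the methods' t-test with unadjusted p at the same threshold, 52 genes passed, no member among them. Cd84 differed by -0.22 on the log2 scale (SE 0.10, adjusted p in limma 0.735), Ly9 by 0.06 (SE 0.17), Slamf9 by 0.06 (SE 0.14) and Slamf8 by -0.22 (SE 0.18). The intervals of Ly9 (-0.33 to 0.45) and Slamf9 (-0.26 to 0.38) lay within less than 0.5 of 0. Between the 2 kinds of EV, Slamf9 was higher after UCI-191 EV than after Shef6 EV by 0.46 (SE 0.11, adjusted p in limma 0.363) and Slamf8 lower, at -0.60 (SE 0.20, adjusted p in limma 0.443), both without overlap, as were 14.9% of genes. No gene passed in limma in that comparison either (0%). With unadjusted p in the methods' t-test, 40 genes passed, 1 of the 4 members among them.

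In CT2A-bearing mice, Cd84 was higher in each sample of CT2A + RT-TMZ + Shef6 EV than in each of CT2A + RT-TMZ + Veh, and its difference of 0.52 (SE 0.20, 95% interval 0.06 to 0.98) did not pass (adjusted p in limma 0.127). None of the 4 members passed, against 5.02% of genes, and non-overlapping and higher groups were found for 19.9% of genes. The difference of Cd84 was 0.24 with median centering (adjusted p in limma 0.428) and 0.16 after quantile normalization (0.625), while with all 7 groups in 1 fit, where 237 of 757 genes passed, Cd84 passed too (0.00570). Ly9 differed by 0.44 (SE 0.31), Slamf8 by 0.29 (SE 0.43) and Slamf9 by -0.12 (SE 0.21). After UCI-191 EV no member passed either, where 1.45% of genes did. Slamf9 was lower in each UCI-191 EV sample than in each vehicle sample (-0.41, SE 0.19, adjusted p in limma 0.225), as were 8.72% of genes, while Cd84 stood at 7.13 in both groups (difference -0.0025, 95% interval -0.39 to 0.38).

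Shef6 EV and UCI-191 EV were also compared with each other in CT2A-bearing mice, where 6.61% of genes passed and no member did. Cd84 was lower after UCI-191 EV by a log2 difference of -0.52 (SE 0.16, adjusted p in limma 0.0974) and Slamf9 at -0.29 (SE 0.14, adjusted p in limma 0.246), without overlap between the groups, as was so and lower for 18.6% of genes. The tumor was compared within each EV as well. Under UCI-191 EV, with and without CT2A, Ly9 differed by -0.78 (SE 0.23), Slamf9 by -0.38 (SE 0.11) and Cd84 by -0.37 (SE 0.11), with adjusted p in limma of 0.0677, 0.0670 and 0.0764 and no overlap for any of the 3. None of the 4 passed, where 12.8% of genes did and 25.2% were lower without overlap. Under Shef6 EV the tumor gave Cd84 a difference of 0.36 (SE 0.17) and Slamf9 one of 0.37 (SE 0.15). Both were higher without overlap, as were 8.59% of genes. No gene passed in limma (0%), and 52 did in the methods' t-test with unadjusted p, no member among them.

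Whether the effect of an EV differed between mice with and without the tumor was tested for both kinds of EV. For Shef6 EV the difference of the effects was 0.94 on the log2 scale for Cd84 (SE 0.22, 95% interval 0.47 to 1.42, adjusted p in limma 0.0306). Cd84 was the 1 member of 4 that passed, where 6.08% of genes passed and 4.89% upward (37 up and 9 down as deposited, 17 and 10 after quantile normalization). It combines the 2 differences of Cd84 from vehicle given above, neither of which passed on its own. In the same test 2 of 4 astrocyte markers passed as deposited, Gja1 (0.49) and Slc1a3 (0.44). With median centering neither passed (Gja1 0.15, adjusted p in limma 0.437, and Slc1a3 0.10, 0.673). After quantile normalization both passed (adjusted p in limma 0.0490 and 0.0453). All 4 oligodendrocyte markers had values above 0 (median 0.48, 0 passed). The part of these markers in the value of Cd84 was not tested. The differences of Ly9 (0.60, SE 0.35), Slamf9 (0.29, SE 0.25) and Slamf8 (-0.09, SE 0.49) did not pass. The median of all genes shifted by 0.17 in this comparison, and with each sample centered on its median gene the value of Cd84 was 0.60 (adjusted p in limma 0.0791). Without RT-TMZ + Veh replicate 2, 3 or 4, RT-TMZ + Shef6 EV replicate 1 or 2, CT2A + RT-TMZ + Veh replicate 3 or any 1 sample of CT2A + RT-TMZ + Shef6 EV, it was 0.78 to 1.06 and missed the threshold (adjusted p in limma 0.0512 to 0.0966). For UCI-191 EV no member passed this test, where 1.85% of genes did, and Cd84 had a difference of 0.22 (SE 0.18).

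All 4 EV groups stayed above Control + Veh for Cd84, Ly9 and Slamf9, the comparisons sharing the same 4 control samples. RT-TMZ + Shef6 EV was 1.63-fold higher for Cd84, 3.16-fold for Ly9 and 1.90-fold for Slamf9 (adjusted p in limma 0.0173, 0.00566 and 0.0239), where 5.42% of genes passed and 3.96% upward. RT-TMZ + UCI-191 EV was 1.88-fold, 3.68-fold and 2.61-fold higher (adjusted p in limma 0.00117, 0.00104 and 0.00104), where 21% passed and 15.7% upward. The corresponding values were 2.10-fold, 2.84-fold and 2.46-fold in CT2A + RT-TMZ + Shef6 EV (adjusted p in limma 0.00468, 0.0114 and 0.00437), where 18% passed and 11.4% upward, and 1.46-fold, 2.14-fold and 2.01-fold in CT2A + RT-TMZ + UCI-191 EV (adjusted p in limma 0.0210, 0.0227 and 0.0130), where 13.1% passed and 7.4% upward. The 3 genes did not overlap with Control + Veh in these 4 comparisons, as was so and higher for 10.6%, 22.1%, 18% and 16.6% of genes in the same order. After quantile normalization the calls over all genes turned to 20 up and 23 down in RT-TMZ + Shef6 EV (30 and 11 as deposited), 84 and 95 in RT-TMZ + UCI-191 EV (119 and 40 as deposited, 99 and 160 with median centering) and 58 and 62 in CT2A + RT-TMZ + Shef6 EV (86 and 50 as deposited), while the log2 differences of the 3 members stayed above 0. In CT2A + RT-TMZ + UCI-191 EV, quantile normalization ended the call of Ly9 (log2 difference 0.88, adjusted p in limma 0.0501). Since the control mean of Ly9 was under background, its folds are uncertain, and with values under background set to it the log2 differences of Ly9 were 1.42, 1.64, 1.26 and 0.86 in the order of the groups above, all of which passed. Slamf8 did not pass in any of the 4, with log2 differences from 0.16 to 0.77.
Several of these calls ended when any of several samples was left out, while the log2 differences stayed above 0. That of Cd84 in CT2A + RT-TMZ + UCI-191 EV, for example, was then 0.48 to 0.60. In RT-TMZ + Shef6 EV, Cd84 and Slamf9 missed the threshold without control replicate 1 or 3 or RT-TMZ + Shef6 EV replicate 2 (adjusted p in limma 0.0574 to 0.110). In CT2A + RT-TMZ + UCI-191 EV, Cd84 did so without control replicate 1 or 3 or its own replicate 1 or 2, and Ly9 without control replicate 3 or its own replicate 1 or 2 (adjusted p in limma 0.0558 to 0.0822). Slamf8 passed without control replicate 2 in 3 of the 4 EV groups, in RT-TMZ + Shef6 EV (log2 0.96, adjusted p in limma 0.0341), CT2A + RT-TMZ + UCI-191 EV (0.79, 0.0378) and CT2A + RT-TMZ + Shef6 EV (0.97, 0.0241).

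Of 26 listed genes of SLAM ligands, co-receptors and signalling, 9 were on the panel. Between RT-TMZ + Veh and Control + Veh, 1 of them rose, 1 fell and 7 did not pass, a share close to the 17.8% of all genes that passed, and their median log2 difference was 0.06 where that of all genes was 0.05. Ptpn6, the phosphatase SHP-1, rose from 6.59 ± 0.05 to 7.14 ± 0.20 (SD, n = 4 each, log2 difference 0.55, adjusted p in limma 0.0122), and Fyn, the kinase recruited through SAP, which neural cells also express, fell by 0.15 (adjusted p in limma 0.0350, and 0.115 and 0.127 after median centering and quantile normalization). Both also passed, in the same directions, in RT-TMZ + UCI-191 EV and CT2A + RT-TMZ + Shef6 EV against Control + Veh, although none of these 4 calls held after quantile normalization (adjusted p in limma 0.0573 and 0.0567 for Ptpn6, 0.184 and 0.152 for Fyn). Fyn alone of the 9 passed in CT2A + RT-TMZ + UCI-191 EV and, without the tumor, in RT-TMZ + Shef6 EV. Quantile normalization ended the former call (adjusted p in limma 0.05001) and median centering the latter (0.0626). Prkcq, a kinase of T cell receptor signalling, rose in RT-TMZ + UCI-191 EV against Control + Veh (log2 difference 0.74, adjusted p in limma 0.0270, and 0.52 with 0.105 after quantile normalization). Cd244a, the SLAM family receptor for Cd48, and Sh2d1a, which encodes SAP, had group means from 3.54 to 4.03 and from 3.55 to 4.03, under background in each group. In CT2A + RT-TMZ + Veh against Control + Veh and in every comparison of an EV with its vehicle, 0 of the 9 passed. Of 7 genes of the NADPH oxidase NOX2, on which Slamf8 is known to act, Ncf1, Rac1 and Rac2 were on the panel, and 0 of the 3 passed in any of the comparisons described here.

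Since SLAM receptors mark leukocytes, markers of the other cell types were read in the same samples. The brain label held, in that 9 neuron markers, 4 astrocyte markers and 10 microglia markers were above background in every group. Among lymphocyte markers, Cd3d, Cd3e and Cd8a of T cells, Fcrla of B cells, and Ncr1, Gzmb, Gzma and Prf1 of NK cells were under background in all 24 samples. These were 3 of 6 T cell markers, 1 of 4 B cell markers and 4 of 8 NK cell markers. Of the others, Trat1 (T cells) was at or above background in 23 samples, and Blnk (B cells) and Klrb1 (NK cells) in 24. The rest were so in 1 to 11 samples. The summed level of 6 T cell markers was 84.2 to 113 normalized counts in Control + Veh and 84.0 to 110 in RT-TMZ + Veh, and that of 4 B cell markers 176 to 212 and 217 to 254. No T cell or B cell marker passed between these 2 groups (0 of 6 and 0 of 4), and of 8 NK cell markers Klrk1 rose from a mean under background (3.58 to 4.62, adjusted p in limma 0.00259), a receptor gene for stress ligands. Of 4 monocyte and macrophage markers, Msr1, a scavenger receptor, rose from 4.23 to 5.84 (adjusted p in limma 0.00426) and Cd163, the hemoglobin scavenger receptor of perivascular macrophages, fell from 5.86 to 4.90 (adjusted p in limma 0.0134). Their summed level was 126 to 152 normalized counts in Control + Veh and 141 to 226 in RT-TMZ + Veh. The part of infiltrating cells in the SLAM gene differences was not tested. The summed T cell markers were 128 to 145 normalized counts in CT2A + RT-TMZ + UCI-191 EV and 96.2 to 142 in RT-TMZ + Shef6 EV. In CT2A + RT-TMZ + UCI-191 EV, Cd6, a T cell receptor for adhesion ligands, was 5.54 against 3.75 in Control + Veh (adjusted p in limma 0.0115). It was the 1 of 6 T cell markers that passed there. Cd84 and Ly9 were in the lower part of the treated range in that group (means 7.13 and 5.22).

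The microglia list as a whole did not follow the SLAM genes. The mean log2 level of 10 microglia markers was 9.46 ± 0.11 (SD, n = 4) in Control + Veh and 9.44 ± 0.10 (SD, n = 4) in RT-TMZ + Veh, where 3 of them rose and 4 fell. Tyrobp (log2 difference 0.48), Trem2 (0.48) and Fcrls (0.63), all receptor or adaptor genes of microglia, rose, and Csf1r, the receptor for the survival factor CSF1, fell by 0.56. Relative to that mean in the same sample, Ly9 was 1.84 higher in RT-TMZ + Veh than in Control + Veh on the log2 scale, Slamf9 1.35 and Cd84 1.15, and for these 3 genes the groups did not overlap. In the other treated groups the microglia mean was 9.21 to 9.33, and relative to it the 3 genes again lay above every control sample. That mean differed from Control + Veh by -0.25 to -0.13 in these groups, which raises every gene on this scale by as much. The share of all genes separated on this scale was not computed, for RT-TMZ + Veh or the other groups. Slamf8, with most values under background, also lay above every control sample on this scale in RT-TMZ + Shef6 EV (1.01), CT2A + RT-TMZ + UCI-191 EV (0.78) and CT2A + RT-TMZ + Shef6 EV (0.90). In RT-TMZ + Shef6 EV it lay 0.61 above RT-TMZ + Veh without overlap. As deposited, Slamf8 overlapped with Control + Veh in both CT2A groups given EVs, and its values in RT-TMZ + Shef6 EV overlapped with RT-TMZ + Veh. Of the 4 control values of Slamf8, 2 equaled the lowest of their sample. Against RT-TMZ + Veh, the lower Cd84 and Slamf9 of RT-TMZ + Shef6 EV came with a microglia mean that was lower by 0.22, and relative to it the differences were -0.20 and -0.18, with overlap. The difference of Cd84 between CT2A + RT-TMZ + Veh and RT-TMZ + Veh was -0.47 relative to the microglia mean, without overlap. Of 8 markers of activated microglia, 4 rose in RT-TMZ + Veh, the chemokine gene Ccl3 (log2 difference 0.86), the integrin gene Itgax (0.68), Apoe (0.32) and Csf1 (0.23), and 0 fell. Itgax did not pass with median centering (adjusted p in limma 0.0596) or after quantile normalization (0.34, adjusted p in limma 0.272), nor Csf1 with median centering (0.0762).

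**Figure D3:**
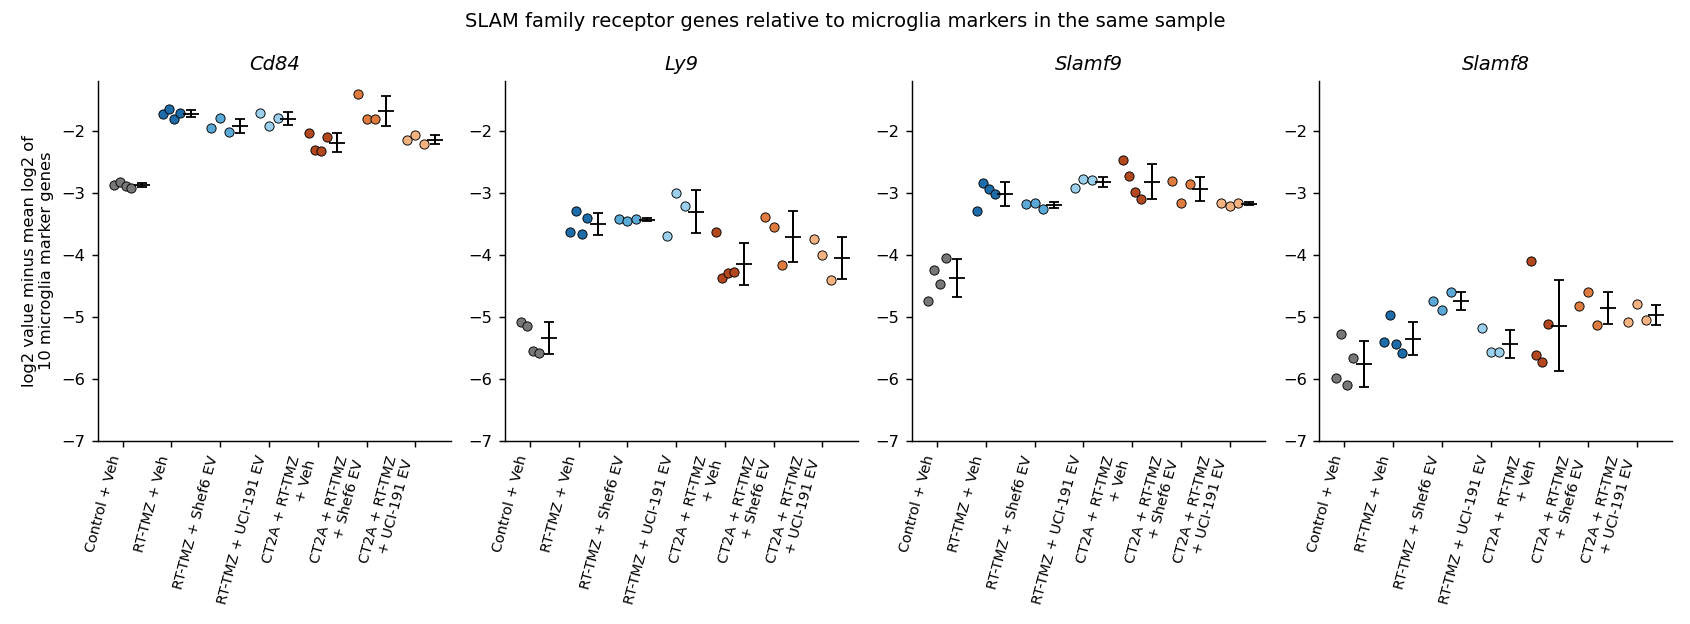
Log2 value of each SLAM gene minus the mean log2 value of 10 microglia markers in the same sample (vertical axis), by group (horizontal axis), with 1 point per sample and the mean ± SD of each group as a bar beside its points. For Cd84, Ly9 and Slamf9 the control samples lie below all others, Ly9 by the widest step (1.84 between the means of RT-TMZ + Veh and Control + Veh).

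Among themselves Cd84 and Ly9 had the closest pattern over the 24 samples, with Pearson's r of 0.886 and Spearman's rho of 0.810, and Slamf9 followed them at 0.775 and 0.771, while Slamf8 stood at 0.448 to 0.468 with the other 3. These values are descriptions, since samples of 1 group share their treatment. After the group means were subtracted, r was 0.609 between Cd84 and Ly9, 0.384 between Cd84 and Slamf9 and 0.639 between Cd84 and Slamf8. It was 0.579 between Ly9 and Slamf8, 0.573 between Slamf8 and Slamf9 and 0.353 between Ly9 and Slamf9. Within groups, Slamf8 thus did not stand apart from the others.

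Of 591 named genes with a mean above background in every group, C3ar1, which encodes the receptor for the complement fragment C3a, was the most similar to both Cd84 (r 0.943, rho 0.920) and Ly9 (r 0.917, rho 0.827). It was followed for both by C4a, a gene of the complement component C4 (r 0.934 with Cd84 and 0.892 with Ly9), and Lilrb4a, an inhibitory receptor gene of myeloid cells (0.915 and 0.892). With group means subtracted, C3ar1 had r of 0.802 with Cd84 and 0.502 with Ly9. C4a and Lilrb4a have near-identical copies in the mouse genome, and the probes may not separate them. Slamf9 was most like Bcl2a1a (r 0.871), a survival gene of the same kind of multicopy family, Fcrls (0.851) and C3ar1 (0.843), so C3ar1 was among the 3 most similar genes of each of the 3 members that rose. Without the 2 samples farthest from the median, these values of r were 0.751 to 0.919. Slamf8 had weaker likeness, with Abcc8 (r 0.634), the complement receptor gene C5ar1 (0.602) and the chemokine gene Ccl3 (0.575), and the last fell to 0.265 without 2 samples.

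**Figure D4:**
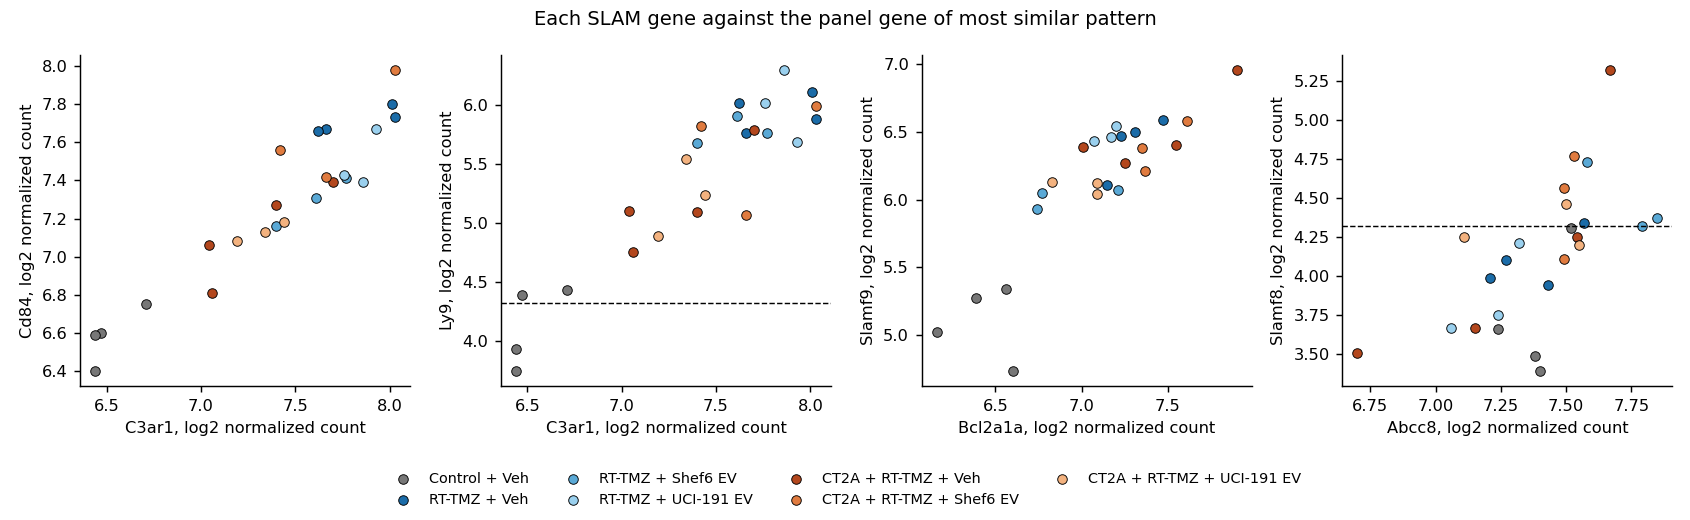
Log2 normalized count of each SLAM gene (vertical axis) against that of the panel gene with the highest Pearson's r (horizontal axis), with 1 point per sample colored by group and background as a dashed line for Ly9 and Slamf8. The control samples form the low end for Cd84, Ly9 and Slamf9, and the r is 0.943, 0.917, 0.871 and, for Slamf8, 0.634.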

How the data were processed

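RNA of 24 brain samples was counted on a neuroinflammation panel. The authors scaled the raw counts to positive controls and then to reference genes and deposited log2 normalized counts to 2 decimals, of which 757 probes were used (703 with a gene symbol). Reference genes were not analysed here. The scaling factors were estimated from low values, where all steps were whole, and counts at higher values are extrapolated with these factors. Each of 17 comparisons used limma 3.58.1 under R 4.3.3, with a mean-variance trend and only its own groups, and Benjamini-Hochberg adjustment covered the 757 genes (threshold 0.05). Lists are described by counts and medians without a set test. The members and lists were chosen with earlier results of these data known. Named genes are the 4 members, list genes that passed (at most 4 per list, otherwise at most 3 of the highest mean) and the 3 genes most like each member. The handling of values under background, the scaling, the replicate block, the methods' t-test (Welch) and each left-out sample were alternatives. Same-numbered samples deviated together in RT-TMZ + Shef6 EV with RT-TMZ + Veh (r 0.58, 0.32 and 0.47) and with CT2A + RT-TMZ + Shef6 EV (0.46, 0.20 and 0.27), which only the data give. Scripts were tested on simulated data. Figures used Python 3.11.15 with matplotlib 3.10.9.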

Additional observations from a re-analysis of the deposited data

Results flagged for a closer look

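The Shef6 EV effect on Cd84 differed between mice with and without CT2A, by 0.94 on the log2 scale (adjusted p in limma 0.0306), since Cd84 was -0.42 from vehicle without the tumor and 0.52 from vehicle with it. Median centring (0.60) and quantile normalization (0.48) ended this call. No sample of the groups of 4 lay far enough from its group for Dixon's test at the 95% level, which chance passes in about 1 in 20 groups, the nearest being Slamf9 in CT2A + RT-TMZ + Veh with a ratio of 0.812.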

How the results depend on the processing

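Of 1471 recomputed values for 90 results, 1318 kept their direction and side of the threshold, and none of the 41 that changed sign passed the test. Cd84, Ly9 and Slamf9 kept their calls in RT-TMZ + Veh and in RT-TMZ + UCI-191 EV against Control + Veh under every alternative run. The cause of the changes below was not tested.
The number of the 4 members that changed moved by over 1.5 times as follows. CT2A + RT-TMZ + Veh against Control + Veh had 1 with the replicate block and 1 in the methods' t-test. CT2A + RT-TMZ + Veh against RT-TMZ + Veh had 0 with median centring, quantile normalization, values under background set to it, the replicate block and the methods' t-test, and 2 with all 7 groups in 1 fit. RT-TMZ + Shef6 EV against Control + Veh had 0 with the replicate block and in the methods' t-test, CT2A + RT-TMZ + Shef6 EV against Control + Veh 1 and CT2A + RT-TMZ + UCI-191 EV against Control + Veh 0 in the methods' t-test. In the last comparison quantile normalization also ended the call of Ly9 (0.88, adjusted p in limma 0.0501) and the replicate block that of Cd84 (0.48, adjusted p in limma 0.0636), each of which left 2 members. CT2A + RT-TMZ + Shef6 EV against its vehicle had 1 with all groups in 1 fit, the tumor under UCI-191 EV had 1 with values set to background (Slamf9), and the difference of the Shef6 EV effects had 0 with median centring (0.60) and quantile normalization (0.48). With 1 sample left out the number was 3 to 4 in RT-TMZ + Veh, 1 to 3 in CT2A + RT-TMZ + Veh, 1 to 4 in RT-TMZ + Shef6 EV, 1 to 4 in CT2A + RT-TMZ + UCI-191 EV and 3 to 4 in CT2A + RT-TMZ + Shef6 EV against Control + Veh, 0 to 1 for the tumor under vehicle and for the Shef6 EV difference, and 3 to 4 over the 7 groups.
Sign changes, all of log2 differences that did not pass, were as follows. With median centring, Ly9 (-0.017) and Slamf9 (-0.018) in RT-TMZ + UCI-191 EV against vehicle, Ly9 (-0.15) and Slamf8 (-0.076) in CT2A + RT-TMZ + UCI-191 EV against vehicle, Slamf8 for the tumor under Shef6 EV (-0.067) and Slamf9 in the Shef6 EV difference (-0.055) changed sign. With quantile normalization, Ly9 in CT2A + RT-TMZ + UCI-191 EV against vehicle (-0.070), Slamf8 in RT-TMZ + UCI-191 EV against Control + Veh (-0.092), Slamf8 for the tumor under Shef6 EV (-0.17) and Slamf9 in the Shef6 EV difference (-0.16) did so. With values set to background, Slamf8 did so in CT2A + RT-TMZ + UCI-191 EV (-0.20) and CT2A + RT-TMZ + Shef6 EV (-0.021) against vehicle and in the UCI-191 EV difference (-0.20), and with the replicate block Cd84 in CT2A + RT-TMZ + UCI-191 EV against vehicle (0.043). With 1 sample left out, the tumor under vehicle gave -0.28 to 0.32 for Slamf8 and -0.064 to 0.17 for Slamf9, RT-TMZ + UCI-191 EV against vehicle -0.088 to 0.22 for Ly9 and -0.043 to 0.12 for Slamf9, and CT2A + RT-TMZ + Shef6 EV against vehicle -0.21 to 0.037 for Slamf9. CT2A + RT-TMZ + UCI-191 EV against vehicle gave -0.11 to 0.083 for Cd84, -0.12 to 0.24 for Ly9 and -0.11 to 0.49 for Slamf8, RT-TMZ + UCI-191 EV against Control + Veh -0.0025 to 0.36 for Slamf8, the tumor under Shef6 EV -0.34 to 0.12 for Ly9 and -0.14 to 0.19 for Slamf8, the Shef6 EV difference -0.31 to 0.29 for Slamf8 and the UCI-191 EV difference -0.18 to 0.18 for Ly9.
Over all alternatives the number of genes called ranged from 60 to 173 (135 in the reported fit) in RT-TMZ + Veh, 8 to 279 (160) in CT2A + RT-TMZ + Veh, 4 to 115 (41) in RT-TMZ + Shef6 EV, 75 to 259 (159) in RT-TMZ + UCI-191 EV, 12 to 149 (136) in CT2A + RT-TMZ + Shef6 EV and 12 to 106 (99) in CT2A + RT-TMZ + UCI-191 EV against Control + Veh, and 0 to 238 (80) for the tumor under vehicle. It was 0 to 237 (38) for Shef6 EV and 0 to 217 (11) for UCI-191 EV against vehicle with the tumor, 0 to 73 (0) for Shef6 EV without it, 0 to 171 (46) and 0 to 72 (14) for the Shef6 EV and UCI-191 EV differences, 1 to 73 (50) and 0 to 103 (0) between the EVs with and without the tumor, and 1 to 153 (97) and 0 to 91 (0) for the tumor under UCI-191 EV and Shef6 EV.
The replicate numbers pair no other groups than those named under processing, where the block changed no call of a member. In those comparisons 0 of 757 genes passed in the reported fit, so the block had no call to end there. A filter on genes under background left Slamf8 without a value in 9 of 17 comparisons, and its low counts (8 to 29 per sample, floor values included) limit what can be detected.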
